A study of Mus musculus with 18 samples.

Results

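Integrin and laminin subunits were measured in 6 groups of sorted mouse dermal cells on Affymetrix Mouse Genome 430 2.0 arrays. The genes were all those whose only symbol in the platform annotation is an integrin alpha chain (Itga), an integrin beta chain (Itgb) or a laminin alpha, beta or gamma chain (Lama, Lamb, Lamc). The rule used names alone and no measured value, although the genes and lists were chosen with earlier results of these data known. It gave 34 of the 18193 genes with a probe set of their own: 16 integrin alpha, 8 integrin beta and 10 laminin subunits. Where a gene had several probe sets, the one brightest on average across all 18 arrays was used. Itga11 and Itgad were not analysed here.

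Every group had 3 arrays, and all cells carried the R26mTmG reporter, in which cells and their descendants switch from membrane RFP to membrane GFP once Cre has been active in them. In En1Cre; R26mTmG mice, green (EPF) and red (ENF) cells were sorted from dorsal dermis, and their arrays are labelled postnatal day 56. Green cells of the same line were also sorted from dorsal dermis (Dorsal) and from ventral dermis (Ventral), with arrays labelled postnatal day 30. In Wnt1Cre; R26mTmG mice, green cells were sorted from cranial dermis (Cranial) and oral mucosa (Oral), also labelled postnatal day 30. The protocol text gives 30 days for the back skin cells, which differs from the day 56 label of EPF and ENF. All cells were gated negative for CD31, CD45, Tie2, Tie119, EpCAM and DAPI, and no treatment is listed. The reporter records past Cre activity, so green cells need not express the driver gene at harvest and red cells are all remaining cells of the gate. The labels do not say whether the arrays of a group came from separate animals, so p-values measure the spread between these samples, which may be technical.

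Integrins are paired alpha and beta chains that span the cell membrane, bind matrix outside and couple to actin inside through talin, vinculin and their partners. The alpha chain largely sets the ligand: collagens, laminins, or proteins with an RGD motif such as fibronectin and vitronectin. Laminins are cross-shaped trimers of an alpha, a beta and a gamma chain that form the sheet of basement membranes, together with type IV collagen, nidogen and perlecan. Dermal fibroblasts use mainly Itgb1 and Itgav pairs to grip collagen and fibronectin, whereas the laminin and integrin chains of hemidesmosomes belong to the epidermis above them.

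For 22 of the 34 genes, 25 promoter windows were found in the RefSeq set (build GRCm38.p6). The 200 bases before the annotated start are shown, 5′ to 3′ on the gene's strand, for 4 genes on which the comparisons below turn: Lama2 and Lamb2, which differed most between EPF and Dorsal among the genes with a window, and Itgb8 and Itgb1, which differed between the sites. Capitals mark a GC box (GGGCGG) or a CCAAT box on either strand.
Lama2: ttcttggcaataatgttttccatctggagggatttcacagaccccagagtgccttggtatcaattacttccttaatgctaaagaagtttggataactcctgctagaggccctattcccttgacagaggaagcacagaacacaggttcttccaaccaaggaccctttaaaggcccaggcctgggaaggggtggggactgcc
Lamb2: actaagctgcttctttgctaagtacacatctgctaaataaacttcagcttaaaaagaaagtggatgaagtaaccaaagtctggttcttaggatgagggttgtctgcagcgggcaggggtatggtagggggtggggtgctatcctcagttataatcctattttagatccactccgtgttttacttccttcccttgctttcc
Itgb8: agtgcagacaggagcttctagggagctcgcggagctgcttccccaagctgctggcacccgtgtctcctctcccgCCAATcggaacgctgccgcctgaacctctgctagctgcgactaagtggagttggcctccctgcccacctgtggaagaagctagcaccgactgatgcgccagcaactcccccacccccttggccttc
Itgb1: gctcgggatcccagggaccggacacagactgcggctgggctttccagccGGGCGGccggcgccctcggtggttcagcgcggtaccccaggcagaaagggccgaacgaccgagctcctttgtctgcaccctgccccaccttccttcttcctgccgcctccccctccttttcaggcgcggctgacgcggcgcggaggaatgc
The windows lie at chr10:27616943-27617142, minus strand (Lama2), chr9:108479662-108479861, plus strand (Lamb2), chr12:119238277-119238476, minus strand (Itgb8) and chr8:128685454-128685653, plus strand (Itgb1). On both strands, GGGCGG was in 8 of the 25 windows and in 31.0% of all 32851 windows of this length in the set. CCAAT was in 4 of the 25 windows and in 29.3% of all windows. TATAAA was in 0 of the 25 windows and in 9.96% of all windows, and TGANTCA, the AP-1 site, was in 1 of the 25 (Itgax) and in 5.48% of all. None of the 4 strings contains another, and a match describes letters, not a site in use. The Lama2 and Lamb2 windows held none of the 4 strings, Itgb8 held 1 CCAAT and Itgb1 held 1 GGGCGG. No window was found for Itga6, Itga7, Itgae, Itgal, Itgb2, Itgb3, Itgb4, Lama1, Lama3, Lama4, Lamc1 or Lamc3.

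Values are log2 expression after robust multichip averaging (RMA), with array medians of 5.19 to 5.32 and lower quartiles of 3.93 to 4.10. The arrays fell into 2 sets: across genes, arrays correlated at 0.962 to 0.988 within EPF and ENF, at 0.946 to 0.998 within the 12 site arrays and at 0.872 to 0.926 between these sets. All 10 fibroblast markers measured were above the array median in every array, and Pdgfra, a defining marker, had group means of 11.53 to 13.17. Ptprc (CD45) had group means of 3.82 to 4.21 and Pecam1 (CD31) of 3.78 to 4.09, near the lower quartile. Probe sets of other genes named in the gate did not read low throughout. Tek (Tie2) had means of 10.46 in ENF and 10.21 in EPF against 3.75 to 4.27 at the sites. The probe set used for Epcam had means of 8.43 to 9.11 in the 6 groups. It did not follow Krt15, a keratinocyte marker: EPF replicate 2 had 9.18 for Epcam and 3.92 for Krt15, and ENF replicate 1 had 7.55 and 9.47. Whether this probe set reads Epcam RNA was not tested. Sox10, of Schwann cells and melanocytes, had group means of 6.38 to 6.84. The mean over 11 keratinocyte markers was 4.90 to 5.34 in the site arrays, 5.22 to 8.04 in EPF and 7.54 to 9.73 in ENF, although EpCAM-positive cells were gated out.

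Of the 34 subunit genes, 17 were above the array median in all 18 arrays, as were 53.1% of all genes. Another 6 (Itga10, Itgae, Itgam, Itgax, Itgb6 and Lama3) were at or below it in all 18, and 11 lay on both sides. The log2 values below are each compared with the same gene's in other arrays, since values of different probe sets are not on 1 scale. In the collagen-binding group, Itga1 had group means of 6.34 to 7.61, Itga2 of 5.14 to 5.65 and Itga10, a chain known from cartilage, of 4.09 to 4.38. Among laminin-binding chains, group means ranged over 6.29 to 6.68 for Itga3, 5.96 to 7.90 for Itga6 and 5.47 to 6.82 for Itga7. Itgb4, which pairs with Itga6 in hemidesmosomes, ranged over 4.77 to 5.46.

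Among chains that bind RGD proteins, Itgav, shared by the vitronectin receptors, was high throughout: its group means ran from 12.04 to 12.49, and single arrays from 11.77 to 12.78. Itga8, a nephronectin receptor chain, had group means of 7.88 to 9.58, Itga5, the fibronectin receptor chain, of 5.92 to 7.88, and Itga2b, best known from platelets, of 7.14 to 8.89. Of the beta chains, Itgb5, an Itgav partner, was high in every group, with means of 10.70 to 11.82. Itgb1, the partner of most matrix-binding alpha chains, ranged over 8.63 to 10.04 and Itgb3, another Itgav partner, over 7.01 to 9.62. Itgb6 and Itgb8, which with Itgav release active TGF-beta from its latent complex, were dim, with group means of 3.37 to 4.24 and 3.36 to 4.64.

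Most chains known mainly from leukocytes were dim. Itgal, Itgam, Itgax and their partner Itgb2 had group means of 4.95 to 5.36, 3.10 to 3.45, 4.23 to 4.66 and 5.07 to 5.62, and Itgae, which binds E-cadherin, of 4.16 to 4.36. Itga4, whose ligands are Vcam1 and fibronectin, ranged over 5.67 to 6.81 and Itga9, a tenascin C receptor chain, over 5.60 to 7.06. Itgb7, the partner of Itga4 and Itgae on lymphocytes, was the exception: it measured 9.18, 8.62 and 9.30 in the ENF arrays and 9.15, 8.04 and 9.08 in the EPF arrays, against 6.02 to 6.50 in the 12 site arrays. In the same EPF and ENF arrays Ptprc had means of 3.90 ± 0.06 and 3.82 ± 0.21 (SD, n = 3). Csf1r, a macrophage marker, averaged 9.88 in EPF and 7.19 in ENF, against 6.48 to 7.67 at the sites, and was the 1 of 8 leukocyte markers called higher in EPF than in Dorsal. The mean over the 8 markers was 5.65 to 5.76 in EPF, 5.22 to 5.54 in ENF and 5.24 to 5.65 in the site arrays. The part of leukocytes in the Itgb7 values was not tested.

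The laminin chains split by level. Lamb1 was high in all groups, from 12.06 ± 0.19 (SD, n = 3) in Oral to 12.94 ± 0.26 in EPF, and Lama4, a chain of vessel and mesenchymal basement membranes, ranged over 10.43 to 11.82. Lama2, the chain known from muscle and nerve, measured 12.92, 12.50 and 12.68 in ENF and 12.73, 12.81 and 12.93 in EPF, and 6.84 to 8.72 in the site arrays. Lamb2 measured 12.27, 10.20 and 11.16 in ENF and 11.49, 11.34 and 10.99 in EPF, and 7.63 to 8.63 in the site arrays. Lamc1, the common gamma chain, measured 11.52, 10.83 and 11.43 in ENF and 10.92, 11.23 and 11.16 in EPF, and 5.95 to 8.77 in the site arrays. For these 3 genes the 6 EPF and ENF arrays all lay above the 12 site arrays. Lama5, of mature epithelial and vessel basement membranes, had group means of 7.09 to 7.76 and Lama1, mainly embryonic, of 4.39 to 5.36. Lama3 and Lamb3, chains of the epidermal anchoring laminin, ranged over 4.06 to 4.51 and 4.41 to 6.07, and Lamc3 over 4.65 to 6.37.

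**Figure D1:**
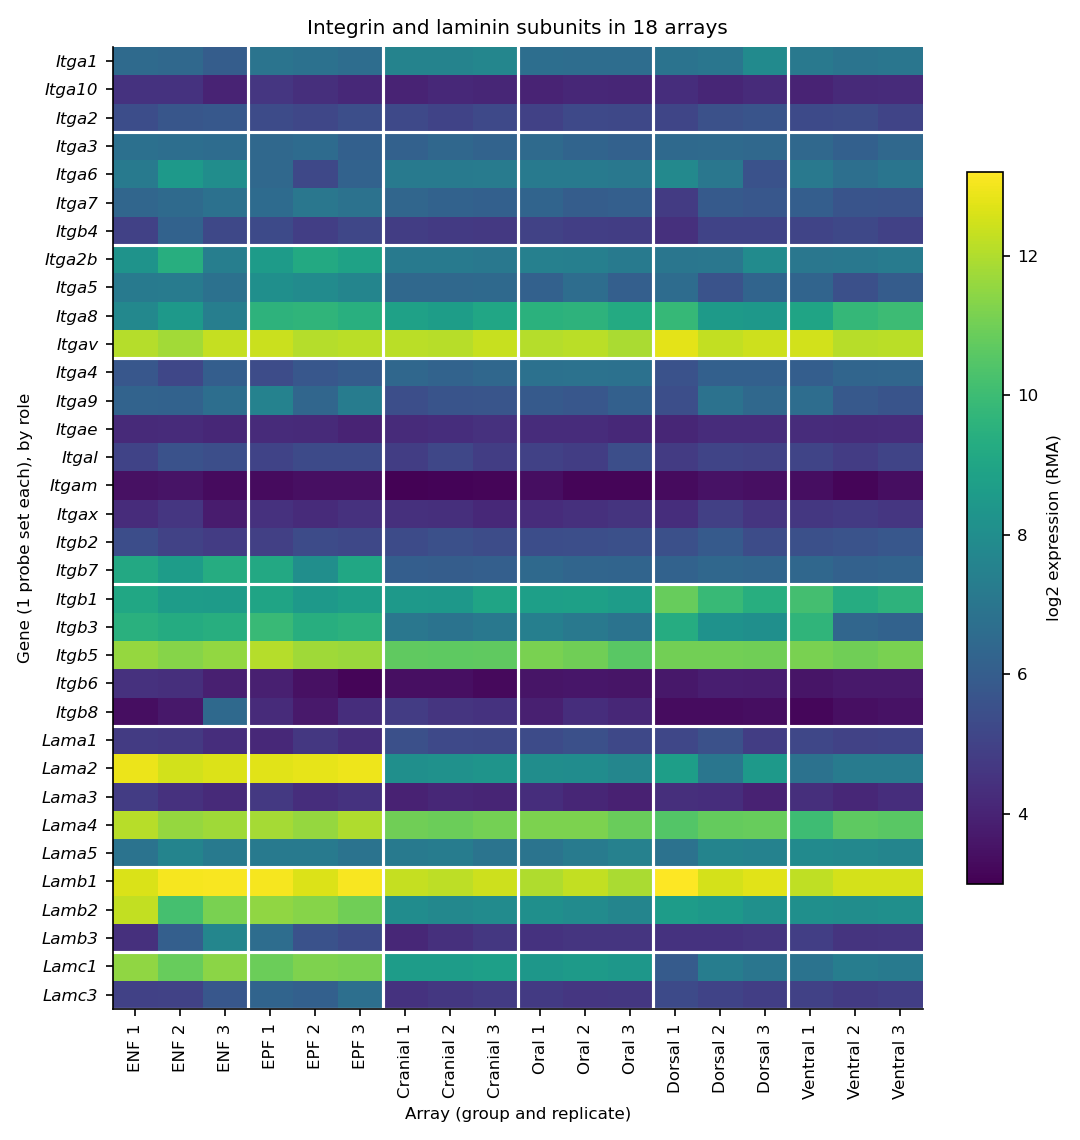
Log2 expression of the 34 integrin and laminin genes (rows, in order of role, separated by white lines) in each of the 18 arrays (columns, by group). Itgav, Itgb5, Lama4 and Lamb1 are bright in every array, and Lama2, Lamb2 and Lamc1 are brighter in the 6 EPF and ENF arrays than in the 12 site arrays.

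**Figure D2:**
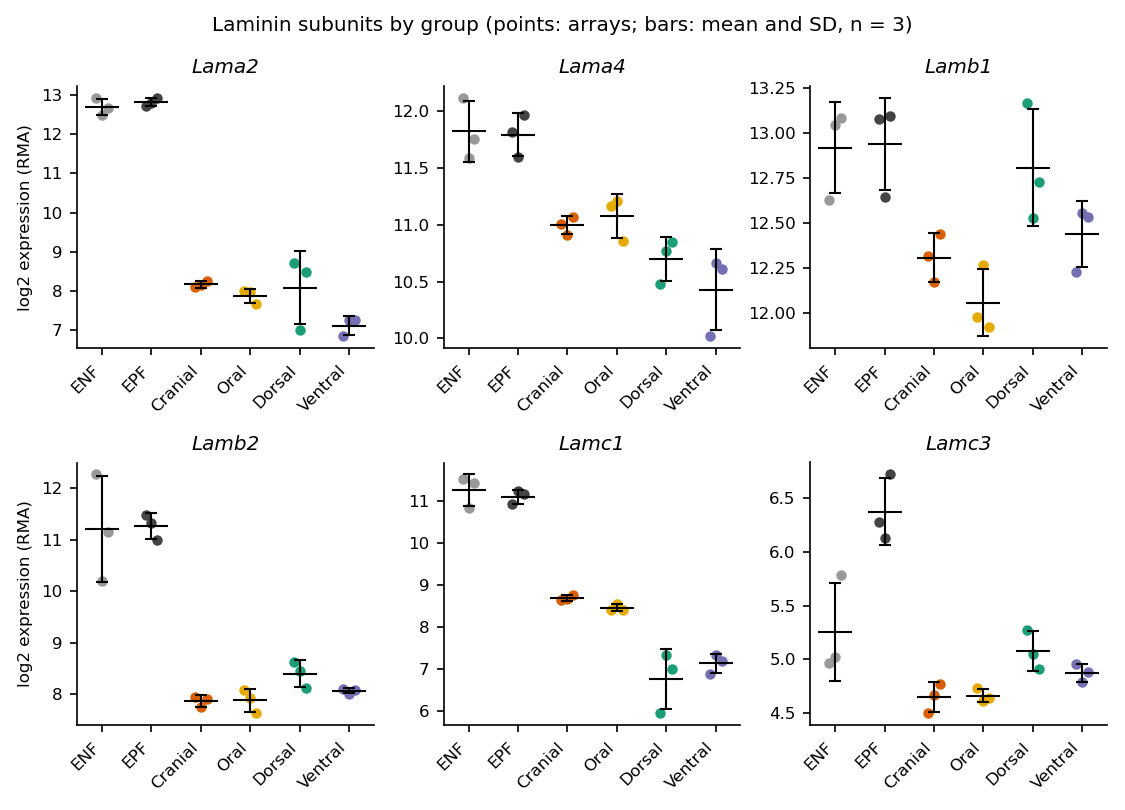
Log2 expression (RMA, vertical axis) of 6 laminin chains by group (horizontal axis). Points are arrays, and bars are the mean and SD of 3 arrays. Lama2 lies between 12.50 and 12.93 in ENF and EPF and at 8.72 or below at the 4 sites.

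The comparison of EPF with ENF asked whether cells with and without an En1 history in back dermis differ. None of the 34 subunits passed the test (limma, Benjamini-Hochberg adjustment over 18193 genes, called at adjusted p under 0.05), and 0.308% of all genes did. An unadjusted p under 0.05 was reached by 6 subunits and by 1967 of all genes. The median difference was 0.01 over the subunits and 0.00 over all genes. Among genes whose arrays did not overlap, the largest differences were those of Itga8, Itga6, Lamc3 and Itga5: Itga8, Itga5 and Lamc3 had higher values in EPF, and Itga6 in ENF.

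Itga8 measured 9.58, 9.67 and 9.44 in EPF and 7.75, 8.52 and 7.36 in ENF. All EPF arrays were above all ENF arrays, and the log2 difference was 1.69 ± 0.29 (SE), with limma adjusted p = 0.0758. Itga6 measured 6.43, 5.22 and 6.22 in EPF and 7.18, 8.51 and 8.01 in ENF, so that every ENF array was higher. Its difference, -1.94 ± 0.41, had adjusted p = 0.14. Itga5 had values of 8.09, 7.93 and 7.63 in EPF against 7.18, 7.24 and 6.81 in ENF, and Lamc3 had 6.27, 6.12 and 6.72 against 4.97, 5.02 and 5.78. Both sets of arrays stood apart, by 0.81 ± 0.19 for Itga5 and 1.12 ± 0.27 for Lamc3, each at adjusted p = 0.175. The EPF and ENF arrays did not overlap for 8 of the 34 genes, against 17.0% of all genes: Itga1, Itga3, Itga5, Itga6, Itga8, Itgb5, Itgb6 and Lamc3. With all 18 arrays in 1 fit, Itga8 and Lamc3 were called higher and Itga6 and Itgb6 lower in EPF, when 2.53% of all genes were called. The less bright probe set of Itga8 differed by -0.18 and a dimmer one of Itga5 by -0.15, neither of them called.

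Some subunits varied widely among the ENF arrays. Lamb3 measured 4.43, 6.10 and 7.69 in ENF and 6.64, 5.55 and 5.32 in EPF, and Itgb8 measured 3.37, 3.64 and 6.49 in ENF and 4.27, 3.71 and 4.32 in EPF. In both genes the third ENF array was the highest of the 6, and the groups overlapped. Keratinocyte markers also varied between these arrays: their mean was 7.54, 9.52 and 9.73 in ENF and 8.04, 5.22 and 6.70 in EPF, and 8 of 11 were above the array median in all ENF arrays against 3 of 11 in all EPF arrays. Krt14 measured 5.80, 9.81 and 9.54 in ENF and 6.30, 4.48 and 5.29 in EPF, and Trp63, called lower in EPF, differed by -4.14. Trp63 was the 1 keratinocyte marker of 11 that passed the test. Markers of mural cells differed the other way, with 4 of 10 called higher in EPF and list means of 7.01 to 7.11 in ENF and 8.56 to 8.77 in EPF. Of that list, Myh11 differed by 2.29 (adjusted p = 0.00498) and Rgs5 by 3.07 (adjusted p = 0.0637). Myf5, of muscle precursors, differed by -4.97 (adjusted p = 0.00591). The part of these cell types in the values of Itga6, Itga8, Lamb3 and Lamc3 was not tested. In such bulk samples, fewer cells of a type and less RNA per cell cannot be told apart.

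**Figure D3:**
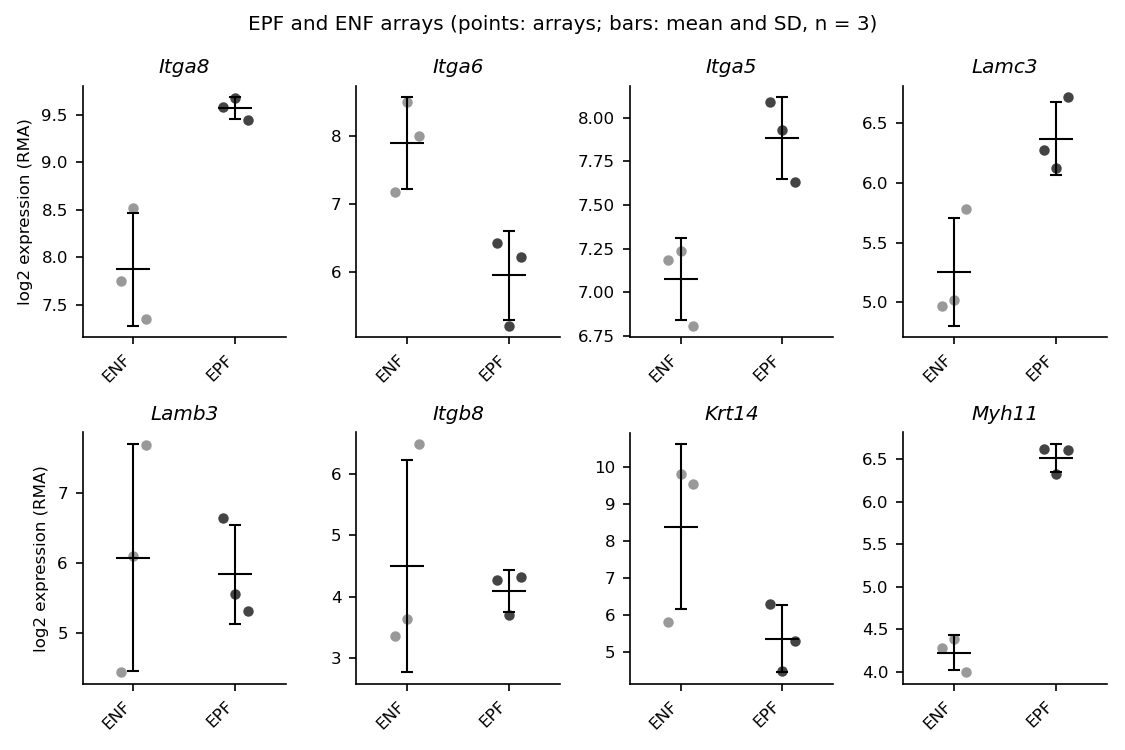
Log2 expression (RMA, vertical axis) in the ENF and EPF arrays for 6 subunits and for the marker genes Krt14 (keratinocytes) and Myh11 (smooth muscle). Points are arrays, and bars are the mean and SD of 3 arrays. The 3 EPF arrays lie above the 3 ENF arrays for Itga8, Itga5, Lamc3 and Myh11 and below them for Itga6, while Lamb3 and Itgb8 spread widely in ENF.

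Within a lineage, no subunit passed the test between body sites. Between Oral and Cranial, both of the Wnt1 lineage, 0 of 34 subunits and 1.14% of all genes were called (limma), and 5 subunits and 1507 genes had an unadjusted p under 0.05. Itga1 measured 6.68, 6.63 and 6.66 in Oral and 7.56, 7.57 and 7.69 in Cranial. The Oral arrays were all lower, with a log2 difference of -0.96 ± 0.21 (SE) and adjusted p = 0.0702. Itgb8 measured 3.91, 4.34 and 4.15 in Oral and 4.82, 4.58 and 4.50 in Cranial, and the difference was -0.50 ± 0.14 (adjusted p = 0.154). In Itga8 and Itga4 the Oral arrays were all higher, by 0.60 ± 0.36 and 0.46 ± 0.15, at adjusted p of 0.811 and 0.29. The Oral and Cranial arrays did not overlap for 10 of 34 subunits and for 25.9% of all genes. When only these 6 arrays were fitted, Itga1 and Itgb8 were called lower and Itga4 and Itga8 higher in Oral, and 9.87% of all genes were called.

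Between Ventral and Dorsal, both of the En1 lineage, 0 of 34 subunits and 0.0275% of all genes were called (limma), and 2 subunits and 1555 genes had an unadjusted p under 0.05. The smallest adjusted p among the subunits was 0.537. The arrays did not overlap for 3 subunits, against 10.1% of all genes: Lama5 (0.44 ± 0.21), Lamb2 (-0.34 ± 0.15) and Itga3 (-0.15 ± 0.13). Itgb3 was uneven within these groups. It measured 9.67, 6.38 and 6.20 in Ventral and 9.31, 8.19 and 8.06 in Dorsal, so 1 Ventral array lay above all 3 Dorsal arrays and the other two lay below them. That array, Ventral replicate 1, also stood apart from Ventral replicates 2 and 3 in other genes. Examples are Lum (5.65 against 9.55 and 9.62) and Cnn1 (10.33 against 7.67 and 7.33). Without Ventral replicate 1, Itgb3 was called lower in Ventral (0.137% of all genes called), and without Dorsal replicate 2, Lama2 was (0.885%). The median difference was -0.09 over the subunits and -0.02 over all genes.

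Comparisons across the lineages set the Wnt1-lineage sites (Cranial, Oral) against the En1-lineage sites (Dorsal, Ventral). Here the Cre line and the body site cannot be told apart. Cranial against Dorsal gave 2 subunits higher and 4 lower (17.6% of 34), with 18.7% of all genes called, 11.2% higher and 7.45% lower. Oral against Dorsal gave 3 higher and 4 lower (20.6%), with 16.8% of all genes, 10.5% higher and 6.3% lower. Cranial against Ventral gave 2 higher and 1 lower (8.82%), with 17.9% of all genes, 11.7% higher and 6.2% lower. Oral against Ventral gave 4 higher and 0 lower (11.8%), with 14.6% of all genes, 10.3% higher and 4.31% lower. These shares were near or below those of all genes. In the same order, the arrays did not overlap for 15, 13, 20 and 12 of the 34 subunits, and for 35.5%, 30.1%, 54.9% and 44.4% of all genes. The 4 comparisons share arrays, so their values are given side by side and do not count as repeats.

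Itgb8, the chain that with Itgav activates TGF-beta, was called higher in Cranial and Oral in all 4 comparisons. It measured 4.82, 4.58 and 4.50 in Cranial and 3.91, 4.34 and 4.15 in Oral, as against 3.35, 3.33 and 3.39 in Dorsal and 3.18, 3.43 and 3.48 in Ventral. The 6 Wnt1-lineage arrays all lay above the 6 En1-lineage arrays, and the latter were below the lower quartile of all probe sets. The differences were 1.28, 0.77, 1.27 and 0.77 (Cranial and Oral against Dorsal, then against Ventral, SE 0.14), with limma adjusted p from 0.000216 to 0.00375. In a fit of all 18 arrays, which includes the spread of ENF, adjusted p was 0.120 to 0.396.

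Itgb1 went the other way. It measured 8.47, 8.46 and 8.95 in Cranial, 8.75, 8.78 and 8.62 in Oral, 10.83, 9.88 and 9.40 in Dorsal and 10.15, 9.30 and 9.58 in Ventral. The Wnt1-lineage arrays were all lower than the En1-lineage arrays, and the first Dorsal array was the highest of the 12. The differences were -1.41, -1.32, -1.05 and -0.96 (SE 0.33), and adjusted p was 0.0137, 0.018, 0.0464 and 0.0737, so the last was not called. The call for Cranial against Ventral was lost without any 1 of its 6 arrays, and in 7 of 14 alternative settings in all. The calls against Dorsal were lost in 4 (Cranial) and 5 (Oral) of 14. Its other bright probe set differed by -0.62, -0.48, -0.21 and -0.06, none of them called. Among its 4 dimmer probe sets, 1 was called in these comparisons, lower in Cranial than in Dorsal (-0.27).

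Lamc1, the gamma chain of most laminins, gave opposite answers from its 2 probe sets. The brighter one measured 8.65, 8.65 and 8.77 in Cranial and 8.40, 8.54 and 8.41 in Oral, against 5.95, 7.33 and 6.99 in Dorsal and 6.88, 7.32 and 7.18 in Ventral. It was called higher in the Wnt1-lineage sites in all 4 comparisons, by 1.94, 1.70, 1.57 and 1.33 (SE 0.28). The dimmer one measured 5.84, 5.97 and 5.63 in Cranial and 5.55, 5.84 and 5.86 in Oral, against 6.75, 7.05 and 6.64 in Dorsal and 6.60, 6.95 and 6.99 in Ventral. It was called lower in all 4, with differences of -1.002, -1.06, -1.03 and -1.10. In both probe sets the lineages did not overlap, so no direction is given for Lamc1 between these sites. Lama4 also split: its bright probe set was higher in Oral than in Ventral by 0.65 ± 0.18 (adjusted p = 0.0337, lost in 5 of 14 settings), whereas the dim one was called lower in Cranial and Oral than in Dorsal (-0.70 and -0.82).

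The remaining calls across lineages were those of Itga4, Lamb1, Lamb2, Lamc3 and Itgb6. Itga4 measured 6.81, 6.84 and 6.80 in Oral, above all arrays of Dorsal (5.59, 6.11 and 6.11) and Ventral (6.06, 6.33 and 6.36). It was called higher against both, by 0.88 ± 0.15 and 0.56 ± 0.15, while its 4 dimmer probe sets gave no call. The call against Ventral was lost in 7 of 14 settings and that against Dorsal in 1. Of the laminin beta chains, Lamb1 was lower in Oral than in Dorsal (log2 difference -0.75 ± 0.17), with values of 11.98, 12.27 and 11.92 against 13.17, 12.53 and 12.73, a call lost in 4 of 14 settings. Lamb2 was lower in Cranial and Oral than in Dorsal (-0.53 and -0.52, SE 0.15), and both calls were lost in 7 of 14 settings. Lamc3 was also lower than in Dorsal (-0.43 and -0.42, SE 0.12), and its other probe set was called the same way for Cranial alone (-0.28). Lamc3 lost the call in 7 of 14 settings for Cranial and in 10 of 14 for Oral. Itgb6 was lower in Cranial than in Dorsal (-0.41), with every array of both groups below the lower quartile of all probe sets. It lost the call in 3 of 13 settings, and its other probe set was not called. Lama2 measured 8.10, 8.14 and 8.26 in Cranial and 6.84, 7.25 and 7.25 in Ventral, a gap of 1.05 ± 0.35 with adjusted p = 0.0624. The count for Cranial against Dorsal was 12 without the first Dorsal array, when 33.8% of all genes were called, and 3 without the first or the second Cranial array, when 9.04% and 11% were. The members' count thus moved with the share of all genes.

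Taking the 12 site arrays by lineage, 3 subunits were higher in every Wnt1-lineage array than in every En1-lineage array (Itgb8, Lama4 and Lamc1, with 9.58% of all genes), and 2 were lower (Itgb1 and Lamc3, with 6.1%). Of these, Lama4 and Lamc1 had a second probe set that differed the other way in at least 2 comparisons, as given above.

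**Figure D4:**
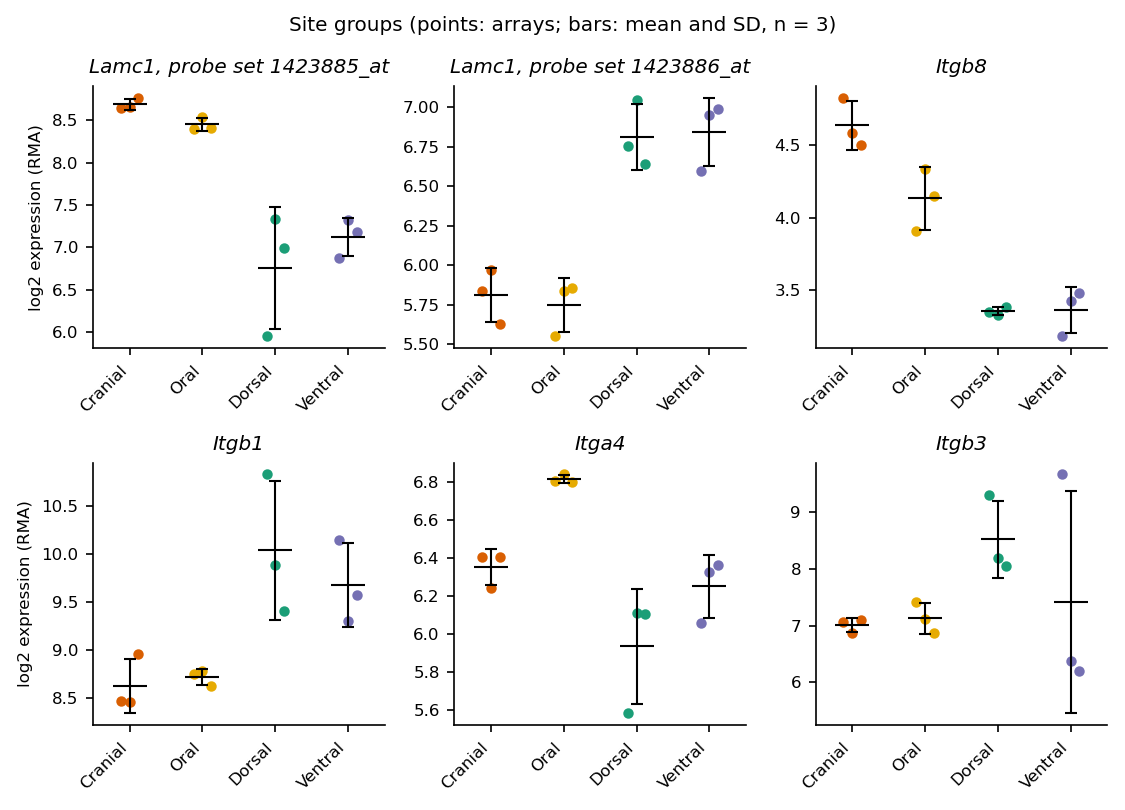
Log2 expression (RMA, vertical axis) at the 4 sites (horizontal axis) for both probe sets of Lamc1 and for Itgb8, Itgb1, Itga4 and Itgb3. Points are arrays, and bars are the mean and SD of 3 arrays. The 2 Lamc1 probe sets separate the Wnt1-lineage sites (Cranial, Oral) from the En1-lineage sites (Dorsal, Ventral) in opposite directions. For Itgb3, 1 Ventral array lies at 9.67 while the others are at 6.38 and 6.20.

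EPF and Dorsal are both labelled green cells of dorsal dermis from En1Cre; R26mTmG mice. They differ in the stage label and fall in the separate sets of arrays described above, so stage and array set cannot be told apart. Of the 34 subunits, 12 were called higher in EPF and 0 lower (35.3%, limma), against 16.8% of all genes called in either direction, 10.9% called higher and 5.94% called lower. The EPF and Dorsal arrays did not overlap for 16 subunits (47.1%) and for 36.6% of all genes. In this fit the share of subunits called higher was thus above that of all genes. With all 18 arrays in 1 fit, 12 subunits were also called (35.3%), Itgb1 and Lama1 lower and the others higher. There 31.2% of all genes were called in either direction, so the 2 shares lay near each other. The median difference was 0.27 over the subunits and 0.01 over all genes, and the median absolute difference 0.68 against 0.31. By role, the 12 genes called higher in the fit of EPF and Dorsal alone were 6 of 10 laminin chains and 6 of 24 integrin chains.

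The largest differences were in 3 chains of 1 possible laminin trimer, Lama2, Lamb2 and Lamc1. Lama2 measured 12.73, 12.81 and 12.93 in EPF and 8.72, 7.01 and 8.49 in Dorsal, a difference of 4.75 ± 0.44 (SE, 26.9-fold, limma adjusted p = 0.00106). Lamc1 measured 10.92, 11.23 and 11.16 in EPF and 5.95, 7.33 and 6.99 in Dorsal, a difference of 4.35 ± 0.36 (20.4-fold, adjusted p = 0.000694). Lamb2 measured 11.49, 11.34 and 10.99 in EPF and 8.63, 8.45 and 8.11 in Dorsal, a difference of 2.88 ± 0.21 (7.34-fold, adjusted p = 0.000459). None of the 3 overlapped between the groups, and all 3 Dorsal arrays were far below the EPF arrays. The second Lamc1 probe set was called higher too, by 1.29. Lama4 differed by 1.09 ± 0.18 in its bright probe set and by 0.05, not called, in the dim one. Lamc3 differed by 1.29 ± 0.21, with its other probe set called at 1.52, and Lamb3 by 1.32 ± 0.34 (adjusted p = 0.0431). Beside Lamb3, an epidermal chain, the keratinocyte list mean was 5.22 to 8.04 in EPF and 5.12 to 5.34 in Dorsal, and its part was not tested. Lamb3 lost the call in 7 of 13 alternative settings.

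Among the integrins, Itgb7 measured 9.15, 8.04 and 9.08 in EPF and 6.22, 6.39 and 6.32 in Dorsal, and the difference was 2.45 ± 0.31 (adjusted p = 0.00322). All EPF arrays were above all Dorsal arrays in Itgb7 and in the next 3 genes. Itga5, of the fibronectin receptor, differed by 1.72 ± 0.28, and of its 3 dimmer probe sets 1 differed by 1.14 and the others by -0.15 and -0.12, none called. Itga2b differed by 1.56 ± 0.29 and Itga7, a laminin receptor chain, by 1.35 ± 0.32. Itgb5 differed by 0.79 ± 0.16, and its 3 other probe sets were called the same way, by 1.51, 1.33 and 1.52, although the call of the bright one was lost in 6 of 13 settings. Itgb8 differed by 0.74 ± 0.20 at adjusted p = 0.0495, from Dorsal values below the lower quartile of all probe sets, and lost the call in 7 of 12 alternative settings. Itgb1 had a difference of -1.31 that did not pass the test (adjusted p = 0.0548). It was called lower with all 18 arrays, without dim genes, with array weights, quantile normalization or the replicate block. The same held without the first or the third Dorsal array, and in these settings 12.9% to 36.6% of all genes were called. Lama1 was called lower in some settings (16.3% to 36.6% of all genes), among them all 18 arrays, array weights and the mean of probe sets. Itgav gave -0.30 in its bright probe set, not called, and -1.82 in a dimmer one, which was called. Without the third EPF array, 7 subunits were called, all of them higher, and 8.1% of all genes.

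**Figure D5:**
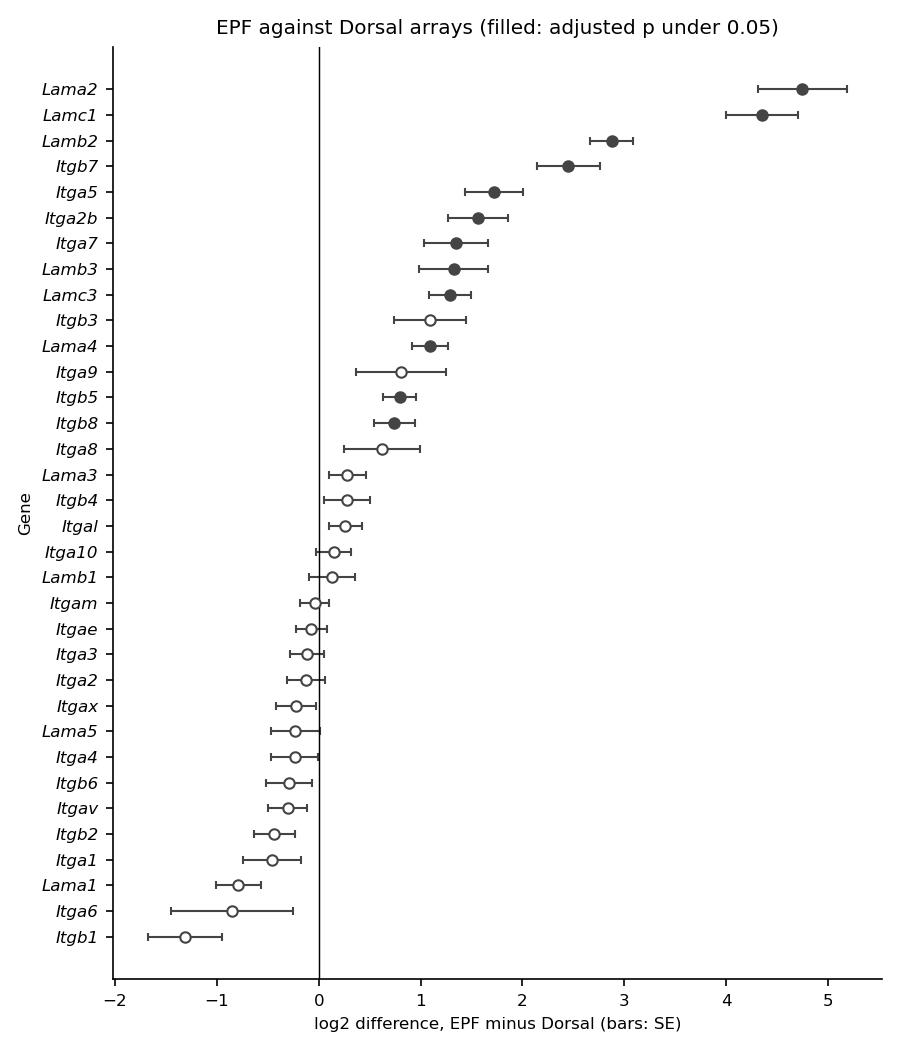
Log2 difference between EPF and Dorsal (horizontal axis, EPF minus Dorsal, bars are the SE) for each of the 34 subunits (vertical axis, ordered by size). Filled points passed the test at adjusted p under 0.05: these 12 all lie to the right of 0, led by Lama2 at 4.75 and Lamc1 at 4.35.

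The same split appeared when ENF was included and the other sites were set against both. For 8 subunits all 6 EPF and ENF arrays were above all 12 site arrays (Itga5, Itga7, Itgb5, Itgb7, Lama2, Lama4, Lamb2 and Lamc1), with 8.64% of all genes doing so. Lama1 was lower in all 6, with 5.05% of all genes. Of the 8 higher subunits, the dim Lama4 probe set overlapped, with 4.575 in EPF replicate 2 and 5.698 in Dorsal replicate 3. Some dimmer Itga5 probe sets differed the other way between EPF and Dorsal, as given above. The higher values were thus measured in red (ENF) and green (EPF) cells alike. This split was described and not tested, and the array set and the stage label cannot be told apart in it. Markers of other cells differed unevenly within their lists. The endothelial list had means of 5.49 to 6.28 in EPF and ENF and 4.55 to 4.82 at the sites, but without Tek, left out after its values were seen, these were 4.92 to 5.64 and 4.59 to 4.95 and overlapped. Between EPF and Dorsal, Tek and Esam of the 8 endothelial markers were called higher, and the median difference over the list was 0.06. Of the mural list, Rgs5 had means of 8.76 and 11.83 in ENF and EPF against 5.52 to 5.90 at the sites. Some smooth muscle genes of the same list went the other way. Acta2 had means of 10.93 and 12.60 against 13.37 to 13.51, and Tagln 7.78 and 9.43 against 11.25 to 11.97. Actg2 had 4.87 and 7.51 against 8.80 to 9.67, and Cnn1 4.82 and 6.96 against 7.27 to 8.45. Myh11 did not follow them. Its EPF mean of 6.51 was above that of every site, and its ENF mean of 4.22 lay among the site means. Notch3 was higher in both, with 8.06 and 8.52 in ENF and EPF against 6.73 to 7.79 at the sites. Des was also higher in both, with 7.23 and 7.68 against 6.46 in Dorsal. Between EPF and Dorsal, 4 of the 10 mural markers were called higher and 2 lower, with a median difference of -0.01. The part of those cells in the laminin values was not tested.

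Partners of the subunits were taken from lists of 22 focal adhesion genes, 20 integrin ligands, 20 basement membrane genes and 15 other laminin or hemidesmosome receptors measured here. The lists were chosen with earlier results of these data known, so their shares describe the values and are not an independent test. Between EPF and ENF, 0 genes of the 4 lists were called. Between Oral and Cranial, 2 ligands were called: Tnn, the gene of tenascin N, was higher in Oral by 2.05 ± 0.13 (limma adjusted p = 1.49e-05), and Edil3, an RGD ligand of Itgav pairs, by 1.53 ± 0.26. Between Ventral and Dorsal, Postn, periostin, was the 1 call, at -1.22 ± 0.15.

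Across the lineages, the focal adhesion list gave 6 higher and 1 lower for Cranial against Dorsal, 6 and 1 for Oral against Dorsal, 2 and 3 for Cranial against Ventral and 5 and 1 for Oral against Ventral. These were 31.8%, 31.8%, 22.7% and 27.3% of the list, beside 18.7%, 16.8%, 17.9% and 14.6% of all genes. Cav1, the caveolar coat protein, was called higher in all 4, by 1.11, 1.48, 1.34 and 1.71 (SE 0.15). Zyx, of mature adhesions, was higher by 1.47 and 1.84 against Dorsal and by 1.32 for Oral against Ventral. Tgfb1i1, a paxillin relative, was higher by 1.13 and 1.36 against Dorsal, and Vcl, vinculin, by 0.85 and 0.87 against Ventral. Actn4, an actin crosslinker, was lower in Cranial than in Ventral (-0.90). The ligand list gave 4 higher and 0 lower, 3 and 2, 6 and 0, and 6 and 2 in the same order (20%, 25%, 30% and 40% of the list). Edil3 was higher in all 4, by 1.42, 2.95, 1.52 and 3.04, and Tnn by 1.28 and 3.33 against Dorsal and 3.18 for Oral against Ventral. Ecm1 was higher in Cranial than in Dorsal by 0.85, and Thbs1, thrombospondin, was lower in Oral than in Dorsal (-1.10). Against Ventral, Postn was higher by 1.20 in Cranial and 1.28 in Oral, and Vcam1, the ligand of Itga4, by 1.35 in Cranial.

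Basement membrane genes had 1 higher and 0 lower for Cranial and 1 and 1 for Oral against Dorsal, and 2 and 1 and 2 and 2 against Ventral, of 20. In this order the shares were 5%, 10%, 15% and 20%, below the 18.7%, 16.8% and 17.9% of all genes in the first 3 and above the 14.6% in the last. Col4a5, a type IV collagen chain, was higher in Cranial by 1.44 and 2.11 against Dorsal and Ventral, and Col4a2, another, was higher in Oral by 1.25 and 1.46. Agrn, agrin, was higher in Cranial than in Ventral by 1.32, and Smoc1 was lower (-0.41). In Oral, Col18a1 was higher than in Ventral by 1.45, and Ntn1, netrin, was lower than in Dorsal and Ventral (-1.79 and -1.44). The other receptors had 1, 3, 2 and 2 of 15 called (6.67%, 20%, 13.3% and 13.3%). Among them Bcam, which binds Lama5, was lower than in Dorsal, at -0.61 in Cranial and -0.63 in Oral. Utrn, utrophin, was higher in Oral by 0.93 and 1.08, Plec by 0.89 against Dorsal and Dst by 0.68 against Ventral. In Cranial, Dmd, dystrophin, and Sdc2, a syndecan, were higher than in Ventral by 1.24 and 0.95.

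Between EPF and Dorsal the basement membrane list had 10 of 20 genes higher and 0 lower (50%, beside 16.8% of all genes called and 10.9% called higher), with a median difference of 1.07 against 0.01 over all genes. Col4a4, a type IV collagen chain, was higher by 5.43 ± 0.28, Smoc2 by 3.72 ± 0.41 and Col15a1 by 3.63 ± 0.63. The other laminin receptors had 5 of 15 higher and 0 lower (33.3%), among them Dmd (1.75), Sdc2 (1.55) and Cd151 (1.46), a tetraspanin that binds laminin receptors. The ligands gave 5 higher and 3 lower of 20 (40%): Vtn, vitronectin, was higher by 4.99 ± 0.18, while Tnc, tenascin C, was lower (-5.89 ± 0.28), as was Egfl6 (-4.78 ± 0.65). The focal adhesion list gave 3 higher and 6 lower of 22 (40.9%), with Lims2 higher by 2.89 ± 0.25 and the talin gene Tln2 and the actinin gene Actn1 lower (-3.03 and -2.33). These list counts carry the same limit of array set as the laminin values.

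Over the 8 comparisons there were 32 calls of a subunit. For 13 of them the gene (Itga2b, Itga7, Itgb7, Itgb8, Lama2, Lamb2 or Lamb3) had 1 probe set, so that the call rests on a single reading. Of the other 19 calls, another probe set of the gene was called the same way in 5, the opposite way in 4, all Lamc1 between sites, and not at all in 10. In 7 cases where the brightest probe set gave no call, another one was called in the opposite direction. Itgb5 was the fullest case: between Oral and Dorsal its brightest probe set differed by -0.11, and the 3 others were called higher in Oral, by 0.61, 0.64 and 0.59. Between Cranial and Dorsal 1 of these was called, at 0.40 against -0.33. Itga3 had 0.53 called against -0.16 for Oral and Dorsal, Itga5 had -0.55 called against 0.54 for Cranial and Ventral, and Itga9 had 0.38 called against -0.13 for Oral and Ventral. The other two were Lama4 against Dorsal, given above. In 8 further cases with no call, another probe set was called in the same direction.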

How the data were processed

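RNA of the 18 sorted samples was measured on 1 array each, and the deposited log2 values had been made by the authors with RMA and quantile normalization in R, per the labels' design text and the submitters' processing notes. Array files before normalization were not used here. Of 45101 probe sets, 64 controls were left out; of the remaining 45037, 34945 had 1 symbol, 932 several and 9160 none in the platform annotation, and 34741 of those with 1 symbol matched RefSeq by Entrez identifier, with 0 symbols changed. Probe sets with several symbols were not used for the genes tested.

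Tests used lmFit and eBayes of limma (version 3.58.1, under R 4.3.3) on 18193 genes, with Benjamini-Hochberg adjustment and a threshold of 0.05. The fit was also run on simulated data, whose results are not given here. EPF against ENF and EPF against Dorsal used their own 6 arrays, and the 4 sites shared 1 fit of 12 arrays. No filter on dim genes was set, and the number of arrays limits the precision. Samples were treated as unpaired. In no comparison did all 3 same-numbered pairs correlate above 0.1, though 2 did for Ventral against Dorsal. With 3 arrays a group, this cannot exclude a pairing by replicate number. Alternatives covered the arrays in the fit, array weights, the variance model, quantile normalization, a filter on dim genes, the mean of a gene's probe sets, a replicate block and leaving out each array. The use of each other probe set, and testing over all probe sets, were added after seeing the data. Named genes were those called (up to 12 a comparison), up to 4 with the largest difference and no overlap where fewer than 4 were called, genes with a group mean above 10, up to 3 called genes per partner list, and defining markers. The genes and lists were chosen with earlier results of these data known. Values were tabulated with Python 3.11.15 and pandas 2.3.3.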

Additional observations from a re-analysis of the deposited data

How the results depend on the processing

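The main limit is 3 arrays a group, so counts of called subunits moved with how the spread was estimated. With array weights they were, with the share of all genes called, 1 (EPF against ENF, 0.445%), 5 (Oral against Cranial, 10.6%), 3 (Ventral against Dorsal, 5.23%), 23 (Cranial against Dorsal, 55.6%), 20 (Oral against Dorsal, 49.3%), 17 (Cranial against Ventral, 48.7%), 12 (Oral against Ventral, 42.5%) and 19 (EPF against Dorsal, 36.6%). With all 18 arrays in the fit they were 4 for EPF against ENF (2.53%), 1 for Oral against Cranial (0.978%), 3 for Cranial against Dorsal (15.7%) and 4 for Oral against Dorsal (14.7%). For EPF against Dorsal this fit gave 12, with Itgb1 and Lama1 lower, while the share of all genes rose to 31.2%. With the 2 groups alone they were 4 for Oral against Cranial (9.87%), 2 for Cranial against Dorsal (6.83%), 3 for Oral against Dorsal (5.85%), 11 for Cranial against Ventral (36.7%) and 8 for Oral against Ventral (27.1%). The mean of a gene's probe sets gave 3 for Oral against Dorsal (15.1%) and 1 for Oral against Ventral (12.6%), and quantile normalization gave 7 for Cranial against Ventral (19.1%). The replicate block gave 0, 0, 0, 5, 6, 3, 4 and 10 calls in the order of the array weights. The shares of all genes called were then 0.115%, 0.934%, 0.011%, 16.1%, 15.2%, 15.1%, 12.9% and 12.9%. Whether the replicate numbers pair the samples is not known.

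Leaving out each array in turn also moved the counts, given here with shares of all genes called. EPF against ENF gave 0 to 1 calls (1, Itga8, without ENF replicate 2, with 0.319%). Oral against Cranial gave 0 to 0 (0.61% to 0.709%). Ventral against Dorsal gave 0 to 1 (1 without Dorsal replicate 2 or Ventral replicate 1, with 0.885% and 0.137%). Cranial against Dorsal gave 3 to 12. The 3 came without Cranial replicate 1 or 2 (9.04% and 11%) and the 12 without Dorsal replicate 1 (33.8%). Oral against Dorsal gave 3 to 9. Without Oral replicate 1, 2 and 3 it was 4, 4 and 3 (11.3%, 9.73% and 11.1%), and without Dorsal replicate 1 it was 9 (30.9%). Cranial against Ventral gave 2 to 2 (9.02% to 12.9%). Oral against Ventral gave 2 to 4 (7.81% to 12.5%), with 2 without Oral replicate 1 or 2, or Ventral replicate 1. EPF against Dorsal gave 7 to 13 (7 without EPF replicate 3, with 8.1%, and 13 without Dorsal replicate 1, with 22.3%).

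Signs turned in other probe sets of a gene, a choice added after seeing the data: Lamc1 gave -1.002, -1.06, -1.03 and -1.10 for Cranial and Oral against Dorsal, then against Ventral, all called. For the other subunits called or singled out by size in a comparison, the turned values were not called: Itga8 (-0.18) and Itga5 (-0.15) for EPF against ENF, Itga5 (-0.15 and -0.12) for EPF against Dorsal, Itga4 for Oral against Cranial (-0.079 and -0.032), Dorsal (-0.027 and -0.10) and Ventral (-0.029, -0.20 and -0.003), Itgb1 (0.006) for Cranial against Ventral, Lama4 (-0.51) for Oral against Ventral and Itga3 (0.16 and 0.031, and 0.015 with the mean of its probe sets) for Ventral against Dorsal. Of the 12 genes called higher in EPF than in Dorsal, Lama2, Lamc1, Lamb2, Itgb7, Itga5 and Lamc3 kept the call in all 13 settings besides the single other probe sets, with adjusted p (limma) of at most 0.0447. Lamb3 and Itgb8 lost it in 7 settings each. Lama2, Lamb2 and Itgb7 have 1 probe set each, so the mean of probe sets left their own values unchanged.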
